A study of Mus musculus with 6 samples.

Results

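The genes described here control lipoprotein lipase (LPL) and carry fatty acids into fat cells. The set holds 10 genes of the 17342 named genes in the deposited tables: Lpl, Lmf1, Gpihbp1, Angptl4, Vldlr, Cd36, Slc27a1, Slc27a4, Fabp4 and Fabp5. They were taken by symbol, and each had 1 row. The set was chosen with earlier results of these data known, so the direction of its differences is not independent evidence. All 10 passed the filter on low values, which asked for 1 FPKM or more when averaged across the 6 libraries and left 11086 named genes. RNA was sequenced from the inguinal white fat, a subcutaneous depot, of cold-stimulated C57BL/6 mice aged 8 weeks. The mice were Rarres2-/- (3 libraries, numbered 4 to 6), which lack the gene for the adipokine chemerin, or wild type (WT, 3 libraries, numbered 1 to 3). Both genotypes had been in the cold and no unstimulated fat was analysed here, so the values show a genotype difference in the cold and not a response to it. The labels give neither the sex, the deleted part of Rarres2, the temperature and length of the cold, nor whether each library came from a separate mouse. Where libraries shared mice, a p-value reflects library-to-library spread alone.

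LPL is made by adipocytes and hydrolyses the triglyceride of circulating lipoproteins inside capillaries, and the freed fatty acids enter the tissue. It folds in the endoplasmic reticulum with the help of LMF1, is carried across the capillary wall by GPIHBP1, and is inactivated by the secreted protein ANGPTL4, which fasting and glucocorticoids induce in white fat. CD36 and the transport proteins of the SLC27 family take up fatty acids at the membrane, and FABP4 and FABP5 bind them in the cytosol.

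Values are FPKM, read fragments divided by the length of the transcript and by the number mapped in the library, so levels of different genes are compared per length. Differences are Rarres2-/- minus WT on log2(FPKM + 1), tested over all 11086 genes with limma and Benjamini-Hochberg adjustment. The scale understates changes of low genes. Counts of genes with higher or lower means in Rarres2-/- also use this scale, and the mean FPKM of a gene can differ in the other direction. Rarres2 itself (chromosome 6, 48569696 to 48572845) stood at 0.260, 6.35 and 1.41 FPKM in Rarres2-/- replicates 4, 5 and 6, against 436, 610 and 505 FPKM in WT replicates 1, 2 and 3, a log2 difference of -7.51 (SE 0.592, adjusted p = 0.0597 by limma). The median FPKM of tested genes was 9.05 to 9.37 in all 6 libraries. Absolute depth is unknown, and the spacing of the lowest values put WT replicate 1 at 0.484 times the depth of WT replicate 2, with the others at 0.698 to 1.01 times. In WT replicate 1 a small nucleolar RNA gene took 62.1% of the FPKM summed over named genes, and this library and Rarres2-/- replicate 4 stood apart in endothelial genes, as given beside Gpihbp1. The tissue label was borne out by adipocyte genes: Adipoq, the adiponectin gene, was at 2118, 2788 and 2809 FPKM in Rarres2-/- libraries and at 2315, 2536 and 2563 FPKM in WT libraries. Bulk RNA cannot tell fewer cells of a type from less RNA per cell.

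Expression of the 10 genes spanned more than 3 orders of magnitude. By the mean over all libraries, Fabp4 came first with 39356 FPKM and ranked 3 among all named genes. Lpl followed with 3444 FPKM, and neither its range nor that of Fabp4 touched that of any other of the 10 genes. Cd36 (926 FPKM), Fabp5 (544), Slc27a1 (360.0), Angptl4 (144) and Gpihbp1 (113) formed a middle tier in which each gene's range over libraries overlapped that of the next. Vldlr (16.8 FPKM), Lmf1 (16.2) and Slc27a4 (12.7) were lowest, overlapped one another, and lay below every value of the middle tier. The 3 genes of this lowest tier were also the steadiest, with a highest library 1.32 to 1.48 times the lowest, against 7.91 times for Angptl4, 5.86 times for Fabp5 and 5.31 times for Gpihbp1.

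**Figure D1:**
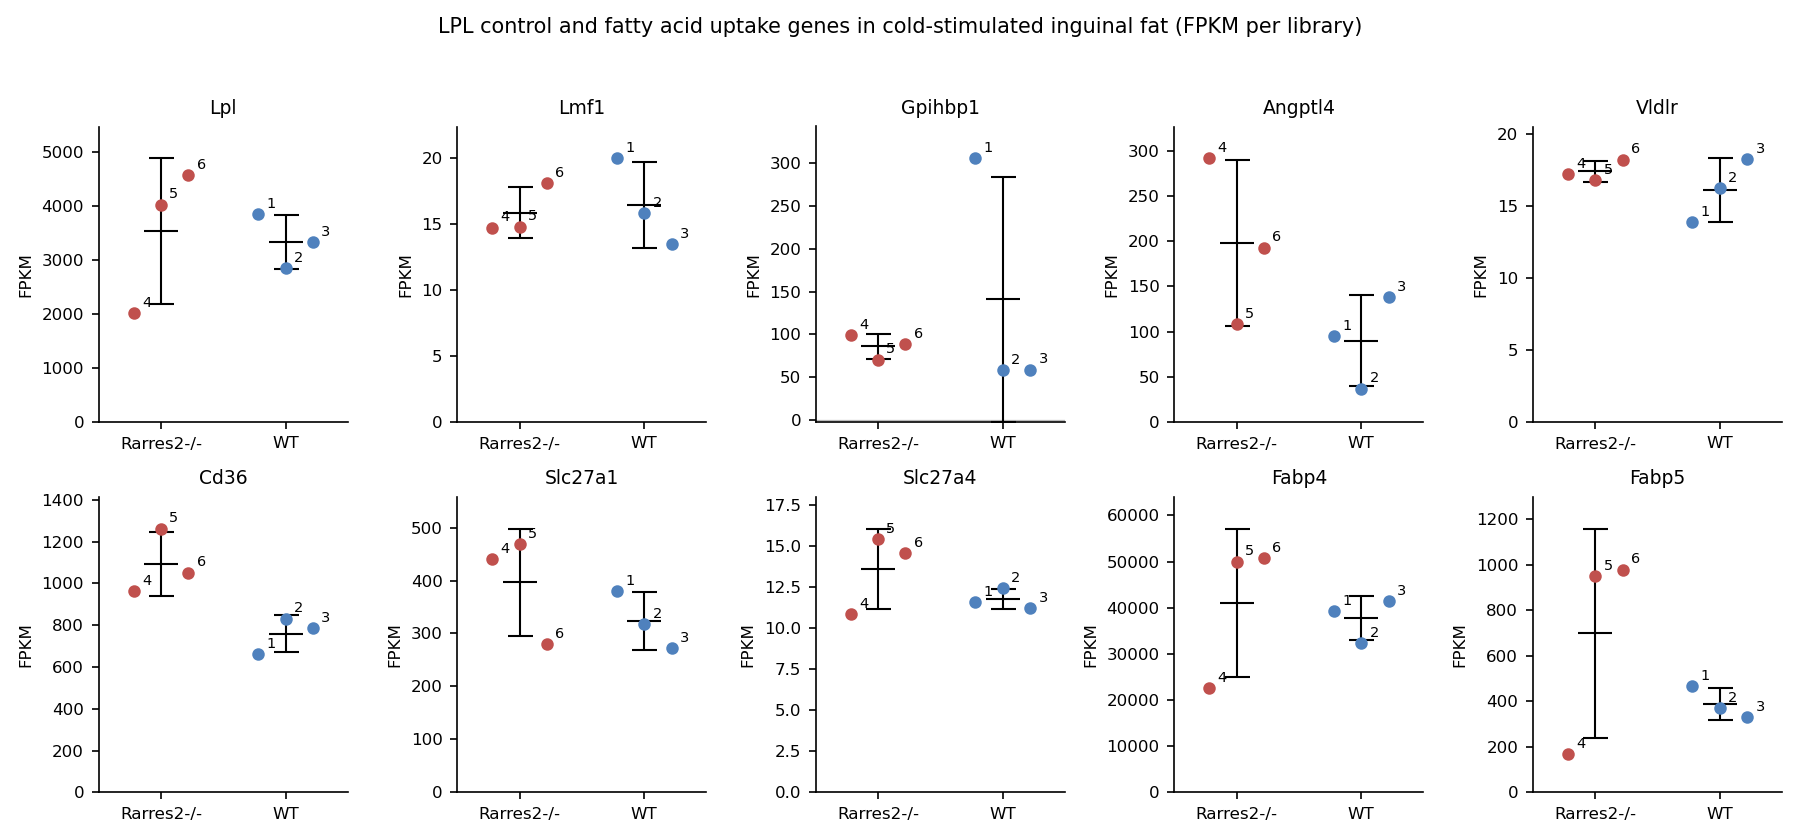
FPKM of each of the 10 genes in Rarres2-/- (red) and WT (blue) libraries. Points are libraries with their number, and horizontal bars with whiskers are the mean and SD of 3 libraries. Cd36 is the only panel in which the genotypes do not overlap, as in 10.3% of all tested genes. The points of Rarres2-/- replicate 4 are lowest for Lpl, Slc27a4, Fabp4 and Fabp5.

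Fabp4 and Fabp5 are paralogs of 1 cluster on chromosome 3, and the coding stretch around the longest run of bases they share is shown because it bears on whether short reads can tell the 2 genes apart. The capitals mark that run of 12 bases, and the sequences are from GENCODE M21 transcripts, coding bases 75 to 146 of Fabp4 and 81 to 152 of Fabp5 on chromosome 3.
Fabp4: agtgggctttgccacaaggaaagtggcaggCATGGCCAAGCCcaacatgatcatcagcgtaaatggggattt
Fabp5: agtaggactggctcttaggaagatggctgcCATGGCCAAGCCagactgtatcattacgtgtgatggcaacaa
Over 396 aligned coding bases the genes were 61.9% identical, and no stretch of 50 bases was common to both transcripts. Fabp5 did share 21.1% of its 50-base stretches with transcripts of 5 other annotated genes, none of them among the 10. Lpl shared 4.11% and Slc27a1 1.75%, and the other 7 genes shared none. The sources used here do not give how reads that match several genes were counted, so the level of Fabp5 is less certain than that of the other genes. No exon of the 10 genes overlapped an exon of another annotated gene.

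No gene passed the test, the deleted gene included, although Rarres2 did pass in 6 of the alternative settings, with adjusted p-values of 0.00198 to 0.0445 by limma. Among all 11086 genes limma called 0 (0%) at an adjusted p under 0.05, and 436 (3.93%) had an unadjusted p under 0.05. Of the 10 genes, 0 were called, 1 (Cd36) had an unadjusted p under 0.05, and every adjusted p was 0.999. Means were higher in Rarres2-/- for 8 of the 10 on the log2 scale, with a median log2 difference of 0.15, while 48.6% of all tested genes were higher, with a median of -0.01. The confidence intervals beside each gene show what sizes of difference 3 against 3 libraries left possible.

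**Figure D2:**
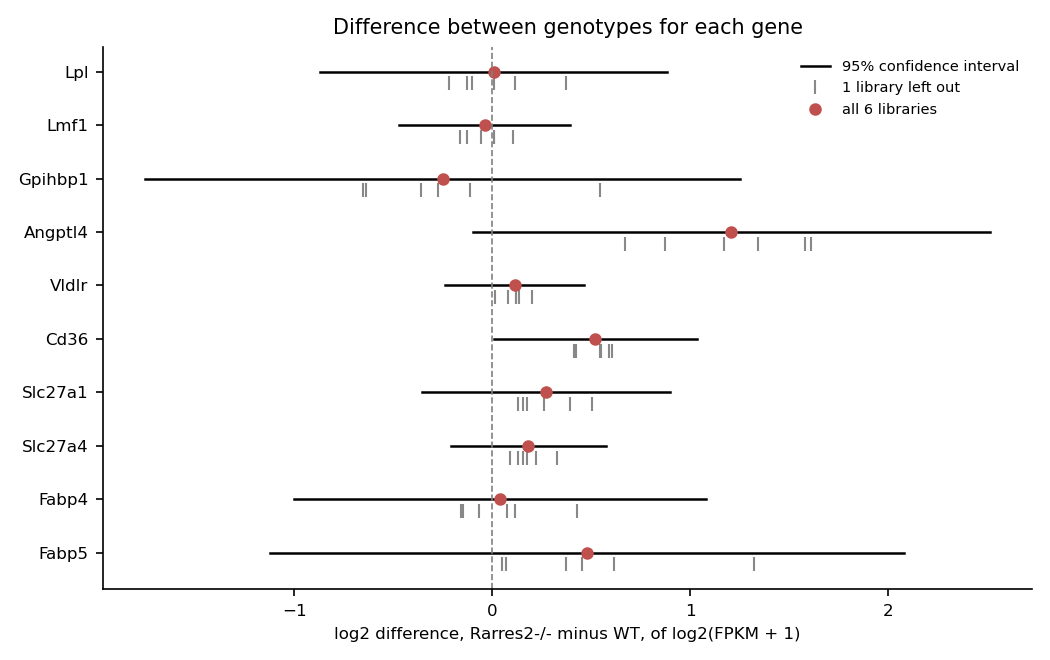
Log2 difference (Rarres2-/- minus WT, on log2(FPKM + 1)) of each gene. Circles are the estimates from 6 libraries, black lines the limma 95% confidence intervals, and grey ticks the estimates with 1 library left out. Angptl4 and Cd36 lie farthest to the right relative to their intervals, and the ticks of Lpl, Lmf1, Gpihbp1 and Fabp4 fall on both sides of 0.

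Lpl (chromosome 8, 68880555 to 68906932, GRCm38), the hydrolase itself, was at 2017, 4030 and 4582 FPKM in Rarres2-/- replicates 4, 5 and 6, against 3855, 2853 and 3329 FPKM in WT replicates 1, 2 and 3. The Rarres2-/- libraries held both the lowest and the highest values. Means were 3543 ± 1350.1 FPKM in Rarres2-/- and 3346 ± 501 FPKM in WT (SD, n = 3 each). The log2 difference was 0.01 (SE 0.369, 95% interval -0.87 to 0.88). It was 0.37 without Rarres2-/- replicate 4 and -0.22 without Rarres2-/- replicate 6, and it also fell below 0 without WT replicate 2, without Rarres2-/- replicate 5 and with upper quartile scaling. It was 0.24 with quantile normalization, 0.38 with array weights and 0.48 without both WT replicate 1 and Rarres2-/- replicate 4.

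Lmf1 (chromosome 17, 25579174 to 25662831), whose protein LPL needs to fold, was at 14.7, 14.8 and 18.1 FPKM in Rarres2-/- libraries and at 19.99, 15.8 and 13.5 FPKM in WT libraries. The groups overlapped, and the log2 difference was -0.04 (SE 0.181, 95% interval -0.47 to 0.39), with a sign that turned without WT replicate 1 (0.10), without Rarres2-/- replicate 4 (0.01) or without Rarres2-/- replicate 5 (0.0065). Of 5 other genes of LPL folding, all 5 tested, 5 had higher means in Rarres2-/- and 0 passed the test, with a median log2 difference of 0.15. Sel1l, whose protein works with LMF1 in LPL maturation, was at 18.9, 19.1 and 16.9 FPKM in Rarres2-/- and at 16.1, 16.3 and 15.8 FPKM in WT, without overlap (log2 difference 0.18, SE 0.126). In 644 (5.81%) of all tested genes all Rarres2-/- libraries likewise lay above all WT libraries. The general chaperone genes Hspa5 and Canx had log2 differences of 0.23 (SE 0.186) and 0.15 (SE 0.178) with overlapping groups.

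Gpihbp1 (chromosome 15, 75596630 to 75598213) encodes the capillary endothelial protein that carries LPL into the lumen. It was at 99.4, 70.4 and 88.3 FPKM in Rarres2-/- libraries, against 306, 57.7 and 58.7 FPKM in WT replicates 1, 2 and 3. WT replicate 1 was the highest of all 6 libraries by far, while the other WT libraries were the lowest. Means were 86.0 ± 14.6 FPKM in Rarres2-/- and 141 ± 143 FPKM in WT (SD, n = 3 each), and the log2 difference was -0.25 (SE 0.632, 95% interval -1.75 to 1.25). Without WT replicate 1 it turned to 0.54, with an adjusted p of 0.487 by limma.

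Apart from Tek, the endothelial marker genes were high in WT replicate 1, as Gpihbp1 was, and also in Rarres2-/- replicate 4, where Gpihbp1 was second highest at 99.4 FPKM. Tek, named after its values were seen, was at 10.5, 8.92 and 6.22 FPKM in Rarres2-/- replicates 4, 5 and 6. In WT replicates 1, 2 and 3 it was at 10.1, 14.6 and 12.1 FPKM, lowest of the WT libraries in replicate 1. The summed FPKM of 9 endothelial marker genes was 233, 65.3 and 80.99 in Rarres2-/- replicates 4, 5 and 6, against 431, 70.1 and 71.1 in WT replicates 1, 2 and 3. All 9 were tested, and on the log2 scale 1 (Pecam1) had a higher and 8 a lower mean in Rarres2-/- (median log2 difference -0.22). The mean FPKM of Pecam1 was lower in Rarres2-/-, at 17.9 against 19.5 in WT. Pecam1, an adhesion gene of endothelial cells, was at 34.7, 9.16 and 9.69 FPKM in Rarres2-/- and at 44.3, 7.51 and 6.83 FPKM in WT. Cdh5, the endothelial cadherin gene, was at 36.0, 7.58 and 8.56 FPKM in Rarres2-/- and at 68.0, 7.48 and 7.13 FPKM in WT. Both markers were thus several times higher in WT replicate 1 and in Rarres2-/- replicate 4 than in the other 4 libraries. Gpihbp1 divided by Pecam1 of the same library, a ratio that does not depend on library scaling, was 2.86, 7.69 and 9.12 in Rarres2-/- and 6.92, 7.68 and 8.59 in WT. This ratio lay within a narrow band in 5 libraries and was lowest in Rarres2-/- replicate 4. There Gpihbp1 stood above the other Rarres2-/- libraries by less than Pecam1 and Cdh5 did. Divided by Cdh5, Gpihbp1 gave 2.76, 9.29 and 10.3 in Rarres2-/- and 4.51, 7.71 and 8.23 in WT, and both libraries with high markers were lower than the rest. The part of endothelial content in the Gpihbp1 values was not tested.

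**Figure D3:**
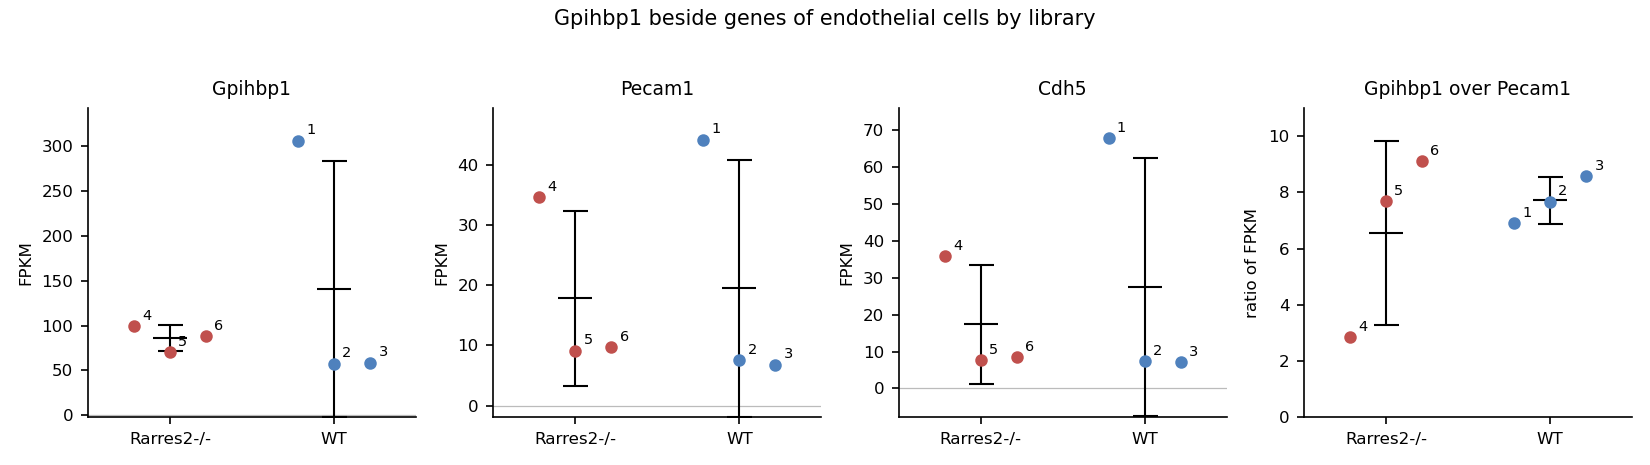
FPKM of Gpihbp1, Pecam1 and Cdh5 and the ratio of Gpihbp1 to Pecam1 in Rarres2-/- (red) and WT (blue) libraries. Points are libraries with their number, bars and whiskers the mean and SD of 3 libraries. WT replicate 1 is high in the first 3 panels, and Rarres2-/- replicate 4 is high in both markers and lowest in the ratio, at 2.86.

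Of 5 genes known to control fatty acid transport of the endothelium 2 had higher and 3 lower means in Rarres2-/-, and 0 passed the test (median log2 difference -0.02). Tcf15, whose protein forms a transcription factor pair with MEOX2 that raises Cd36 and Lpl in heart endothelium of mice, was at 16.2, 5.59 and 6.25 FPKM in Rarres2-/- and at 54.8, 5.48 and 4.52 FPKM in WT. Meox2 was at 7.80, 2.95 and 3.12 FPKM in Rarres2-/- and at 15.6, 5.24 and 4.53 FPKM in WT. Both followed the endothelial markers, being highest in WT replicate 1 and next highest in Rarres2-/- replicate 4. The Tcf15 log2 difference of -0.43 (SE 0.898) turned to 0.65 without WT replicate 1. Vegfb, a growth factor gene linked to endothelial fatty acid uptake, had a log2 difference of 0.05 (SE 0.242), which was below 0 without WT replicate 2, without WT replicate 3, without Rarres2-/- replicate 6 and with quantile normalization.

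Angptl4 (chromosome 17, 33774900 to 33781575), the LPL inhibitor, had the largest log2 difference of the 10 genes. It was at 292, 108 and 193 FPKM in Rarres2-/- replicates 4, 5 and 6, against 94.99, 36.9 and 138 FPKM in WT replicates 1, 2 and 3. The 2 highest libraries were Rarres2-/- and the 2 lowest WT, but WT replicate 3 exceeded Rarres2-/- replicate 5. Means were 198 ± 91.8 FPKM in Rarres2-/- and 89.9 ± 50.6 FPKM in WT (SD, n = 3 each), a ratio of 2.20. The log2 difference was 1.21 (SE 0.549, 95% interval -0.10 to 2.51), with an unadjusted p of 0.0650 and an adjusted p of 0.999 by limma. It stayed above 0 in each of the 6 fits with 1 library left out, from 0.67 without WT replicate 2 to 1.61 without WT replicate 3.

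Angptl8, listed under its older symbol Gm6484, encodes a feeding-induced relative that binds ANGPTL4 and blunts the action of ANGPTL4 on LPL. It was at 5.38, 32.7 and 34.7 FPKM in Rarres2-/- replicates 4, 5 and 6, against 85.4, 186 and 17.2 FPKM in WT replicates 1, 2 and 3. The library with the most Angptl4, Rarres2-/- replicate 4, had the least Angptl8, and the library with the least Angptl4, WT replicate 2, had the most Angptl8. WT replicate 3 was the WT library with the most Angptl4 and the least Angptl8. The opposite order did not hold throughout, as Rarres2-/- replicate 6 had more of both than Rarres2-/- replicate 5. Angptl4 was at 193 against 108 FPKM there, and Angptl8 at 34.7 against 32.7 FPKM. The log2 difference of Angptl8 was -1.75 (SE 0.988, 95% interval -4.10 to 0.60), with an adjusted p of 0.999 by limma and a range of -2.69 to -0.94 with 1 library left out.

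**Figure D4:**
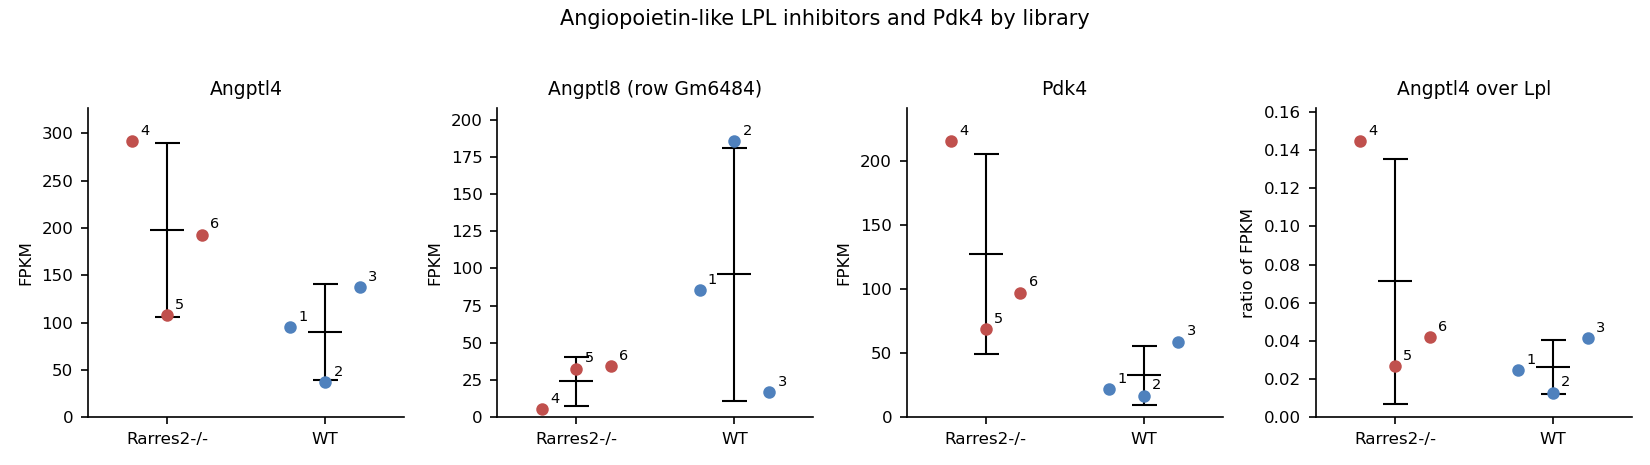
FPKM of Angptl4, Angptl8 and Pdk4 and the ratio of Angptl4 to Lpl in Rarres2-/- (red) and WT (blue) libraries, with library numbers. Bars and whiskers are the mean and SD of 3 libraries. Rarres2-/- replicate 4 is highest for Angptl4 (292 FPKM) and Pdk4 and lowest for Angptl8 (5.38 FPKM).

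The amount of inhibitor message per LPL message varied more than LPL did. Angptl4 divided by Lpl of the same library was 0.145, 0.0269 and 0.0421 in Rarres2-/- and 0.0246, 0.0129 and 0.0414 in WT. Rarres2-/- replicate 4 stood apart, being highest in Angptl4 and lowest in Lpl. Of the other Rarres2-/- libraries, replicate 5 lay within the WT range, and replicate 6 was just above the highest WT library (0.0421 against 0.0414). Of 15 genes of LPL cofactors, inhibitors and cleavage enzymes, Angptl8 included, 13 were tested, 7 had higher and 6 lower means in Rarres2-/-, and 0 passed the test (median log2 difference 0.06). Apoe, which encodes an apolipoprotein of triglyceride-rich lipoproteins, was at 3490, 3194 and 3772 FPKM in Rarres2-/- and at 5918, 4908 and 4441 FPKM in WT, lower in all 3 Rarres2-/- libraries, as were 502 (4.53%) of all tested genes (log2 difference -0.54, SE 0.250, adjusted p = 0.999 by limma). Sorl1, a sorting receptor that directs newly made LPL to lysosomes, was at 4.25, 7.69 and 8.07 FPKM in Rarres2-/- and at 2.47, 4.404 and 4.02 FPKM in WT, with overlapping groups (log2 difference 0.71, SE 0.272). Apoc2, the activating cofactor of LPL, chosen after its values were seen, was at 3.43, 10.9 and 11.7 FPKM in Rarres2-/- and at 9.93, 7.08 and 8.20 FPKM in WT, and Apoa5 was listed at 0 in all 6 libraries.

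Angptl4 is a known target of the glucocorticoid receptor and of PPARs, and genes of both were examined beside it. Of 10 genes of the glucocorticoid and fasting response, all tested, 8 had higher and 2 lower means in Rarres2-/-, with a median log2 difference of 0.91 and 0 past the test. In 5 of them all Rarres2-/- libraries lay above all WT libraries, as in 644 (5.81%) of all tested genes. In 1 of them, Nr3c1, the gene of the glucocorticoid receptor itself, all lay below, as in 502 (4.53%) of all tested genes. Nr3c1 was at 29.7, 40.98 and 40.96 FPKM in Rarres2-/- and at 41.03, 46.8 and 42.9 FPKM in WT (log2 difference -0.24, SE 0.177). Zbtb16 and Fkbp5, known targets of the receptor, had log2 differences of -0.66 (SE 0.753) and 0.24 (SE 0.283) with overlapping groups. These 3 genes were named after their values were seen. Part of this list was known from earlier results of these data, so its direction is not independent evidence. Ddit4, an inhibitor of mTORC1, was at 114, 88.4 and 70.6 FPKM in Rarres2-/- and at 39.2, 14.9 and 16.7 FPKM in WT. Tsc22d3, which encodes the glucocorticoid-induced leucine zipper protein, was at 166, 266 and 188 FPKM in Rarres2-/- and at 92.6, 96.0 and 98.0 FPKM in WT. Irs2, an insulin receptor substrate gene, was at 14.9, 9.06 and 11.6 FPKM in Rarres2-/- and at 4.72, 4.36 and 5.59 FPKM in WT. Their log2 differences were 2.01 (SE 0.380) for Ddit4, 1.08 (SE 0.213) for Tsc22d3 and 1.10 (SE 0.196) for Irs2, with adjusted p-values of 0.888, 0.939 and 0.880 by limma. Within each genotype the order of the libraries was that of Angptl4 for Irs2, but not for Ddit4 or Tsc22d3. Pdk4, which encodes a kinase that blocks glucose oxidation in fasting and was chosen after its values were seen, was at 216, 68.9 and 97.5 FPKM in Rarres2-/- and at 22.4, 17.0 and 59.1 FPKM in WT. Its order within each genotype was also that of Angptl4. Pck1, the gene of glycerol synthesis in fat and also chosen afterwards, was at 1869, 579 and 1041 FPKM in Rarres2-/- and at 393, 418 and 921 FPKM in WT.

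Of 8 genes of the PPAR group, 5 had higher and 3 lower means in Rarres2-/-, 0 passed the test and the median log2 difference was 0.08. Cebpa, a transcription factor gene of adipocytes, was at 604, 563 and 778 FPKM in Rarres2-/- and at 581, 593 and 435 FPKM in WT (log2 difference 0.27, SE 0.232). Rxrb, a partner of PPARs, and the coactivator gene Ppargc1b had log2 differences of -0.20 (SE 0.149) and -0.52 (SE 0.313), with overlapping groups. Pparg, the master regulator of adipocytes, named after its values were seen, was at 84.4, 186 and 185 FPKM in Rarres2-/- and at 181, 210 and 151 FPKM in WT. Its lowest library was Rarres2-/- replicate 4, the library with the lowest Lpl, Fabp4 and Fabp5.

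Vldlr (chromosome 19, 27216480 to 27254231), the receptor that binds triglyceride-rich lipoproteins and works with LPL, was the most even of the 10 genes. It was at 17.2, 16.8 and 18.2 FPKM in Rarres2-/- libraries and at 13.9, 16.3 and 18.3 FPKM in WT libraries. WT libraries held both extremes. The log2 difference was 0.11 (SE 0.147, 95% interval -0.24 to 0.46), 0.01 without WT replicate 1 and -0.0037 with array weights. Of 5 further genes of lipoprotein receptors and their chaperone 3 were tested, and all 3 had higher means in Rarres2-/- with 0 past the test (median log2 difference 0.13). Lrp1, which encodes a large receptor of lipoprotein remnants, was at 59.98, 25.4 and 21.6 FPKM in Rarres2-/- and at 25.0, 31.5 and 32.0 FPKM in WT. Rarres2-/- replicate 4 alone was high, and the log2 difference of 0.13 (SE 0.372) turned to -0.31 without it. Scarb1 (log2 difference 0.32, SE 0.292), the receptor of high density lipoprotein, overlapped between genotypes, while the chaperone gene Lrpap1 (0.10, SE 0.129) did not overlap. All Rarres2-/- libraries lay above all WT libraries for Lrpap1, as in 5.81% of all tested genes.

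Cd36 (chromosome 5, 17781690 to 17888959), the fatty acid translocase of adipocytes and endothelium, was higher in every Rarres2-/- library than in any WT library. It was at 963, 1262 and 1052 FPKM in Rarres2-/- replicates 4, 5 and 6, against 663, 832 and 785 FPKM in WT replicates 1, 2 and 3. Means were 1092 ± 153 FPKM in Rarres2-/- and 760 ± 87.1 FPKM in WT (SD, n = 3 each), a ratio of 1.44. The log2 difference was 0.52 (SE 0.216, 95% interval 0.01 to 1.03), with an unadjusted p of 0.0480 and an adjusted p of 0.999 by limma, so it failed the correction. Such separation held for 1 of the 10 genes and for 1146 (10.3%) of all tested genes in either direction. With 1 library left out the difference ran from 0.41 to 0.61. Array weights gave Rarres2-/- replicate 5 a weight of 6.19 and Rarres2-/- replicate 4 and WT replicate 1 weights of 0.179 and 0.192. With these weights Cd36 passed the test (log2 difference 0.61, adjusted p = 0.0223 by limma). That fit called 1524 (13.7%) of all genes, and its weight estimation stopped with a convergence warning. The libraries richest in endothelial markers, Rarres2-/- replicate 4 and WT replicate 1, had the lowest Cd36 of their genotype, and the part of endothelial RNA in the Cd36 values was not tested.

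The 250 bases before an annotated start of Cd36 are shown, as Cd36 was the only one of the 10 genes whose genotypes did not overlap. Such separation also held for 10.3% of all tested genes. RefSeq promoter sequences on GRCm38.p6 were matched for 5 of the 10 genes (Lmf1, Vldlr, Cd36, Slc27a1 and Slc27a4). The stretch is chr5:17835897-17836146 on the minus strand, inside the gene's annotated span. Capitals mark an AGGTCA element, the base unit of PPAR binding sites, read here on the other strand, and a CCAAT box.
Cd36: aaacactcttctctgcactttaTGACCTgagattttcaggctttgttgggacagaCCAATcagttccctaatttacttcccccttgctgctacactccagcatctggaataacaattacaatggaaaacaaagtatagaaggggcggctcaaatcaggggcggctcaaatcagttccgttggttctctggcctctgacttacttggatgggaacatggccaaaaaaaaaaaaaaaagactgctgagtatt
On both strands, AGGTCA occurred in 14.0% and CCAAT in 33.9% of the 32851 promoter stretches of that length. The full direct repeat AGGTCANAGGTCA, which contains AGGTCA, occurred in 0.0335% of them and in none of the 8 stretches of the 5 genes, and TATAAA, present in 12.4% of all stretches, was not in those 8 either. These matches describe letters and do not show binding.

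Slc27a1 (chromosome 8, 71568728 to 71587307) encodes FATP1, the insulin-responsive fatty acid transporter of fat and muscle. It was at 440, 469 and 280 FPKM in Rarres2-/- libraries and at 380, 317 and 273 FPKM in WT libraries. Rarres2-/- replicates 4 and 5 were the highest of all, and replicate 6 was within the WT range. The log2 difference was 0.27 (SE 0.263, 95% interval -0.35 to 0.90), between 0.13 and 0.50 with 1 library left out. Slc27a4 (chromosome 2, 29802634 to 29817522), which encodes the related FATP4, was far lower, at 10.8, 15.4 and 14.5 FPKM in Rarres2-/- and at 11.6, 12.4 and 11.2 FPKM in WT. Rarres2-/- replicate 4 was the lowest of the 6 and the other Rarres2-/- libraries the highest. Its log2 difference was 0.18 (SE 0.164, 95% interval -0.21 to 0.57), and it was 0.33 with an adjusted p of 0.0416 by limma with array weights. That fit called 1524 (13.7%) of all genes and gave Rarres2-/- replicate 4 a weight of 0.179. Its weight estimation stopped with a convergence warning. The ratio of Slc27a1 to Slc27a4 was 40.7, 30.4 and 19.3 in Rarres2-/- and 32.9, 25.5 and 24.3 in WT, so the 2 transporters did not move together across libraries. Skeletal muscle also expresses Slc27a1, Lpl and Cd36, and the summed FPKM of 10 muscle markers was 431, 493 and 284 in Rarres2-/- and 1403, 173 and 258 in WT. Of these markers 9 were tested, 4 with higher and 5 with lower means in Rarres2-/-. WT replicate 1, richest in muscle markers, had the lowest Cd36, and its Slc27a1 and Lpl lay between the extremes of the 6 libraries. Within Rarres2-/- the order of the libraries was that of the muscle sum for Slc27a1, but not for Lpl or Cd36. Within WT, Slc27a1 and the muscle sum were both highest in replicate 1, while replicates 2 and 3 were in opposite order. The part of muscle RNA in these genes was not tested.

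Of 15 other genes of fatty acid transport and activation 12 were tested, and 0 passed the test. On the log2 scale 11 had a higher and 1 a lower mean in Rarres2-/-, while 48.6% of all tested genes were higher. The median log2 difference was 0.29, against -0.01 over all tested genes. In 3 of the 12 genes (Acsl1, Got2 and Slc27a2) all Rarres2-/- libraries lay above all WT libraries, as in 5.81% of all tested genes. This list, like the others, was chosen with earlier results of these data known, so its direction is not independent evidence. Acsl1, the main adipocyte enzyme that activates fatty acids to acyl-CoA, was at 840, 1055 and 985 FPKM in Rarres2-/- and at 547, 645 and 619 FPKM in WT. Its log2 difference was 0.67 (SE 0.201), with an unadjusted p of 0.0134 and an adjusted p of 0.999 by limma. As for Cd36, each Rarres2-/- library lay above each WT library, with Rarres2-/- replicate 5 highest and WT replicate 1 lowest. Got2, a mitochondrial enzyme also described as a membrane fatty acid binder, was at 17.4, 16.3 and 15.3 FPKM in Rarres2-/- and at 10.6, 11.9 and 15.0 FPKM in WT (log2 difference 0.37, SE 0.162). Cav2, a caveolin gene, was at 224, 309 and 260 FPKM in Rarres2-/- and at 145, 235 and 194 FPKM in WT, with overlapping groups (log2 difference 0.48, SE 0.240). Of the other SLC27 genes, named after their values were seen, Slc27a2 was at 2.47, 1.68 and 1.80 FPKM in Rarres2-/- and at 1.07, 1.51 and 1.49 FPKM in WT (log2 difference 0.34, SE 0.178). Slc27a3 averaged 1.57 FPKM over all libraries, and Slc27a5 and Slc27a6 did not exceed 0.180 FPKM in any.

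Fabp4 (chromosome 3, 10204342 to 10208616), the adipocyte fatty acid binding protein gene, was at 22502, 49972 and 50671 FPKM in Rarres2-/- replicates 4, 5 and 6, against 39212, 32318 and 41460 FPKM in WT replicates 1, 2 and 3. Rarres2-/- libraries again held the lowest value and the highest. Means were 41049 ± 16065 FPKM in Rarres2-/- and 37663 ± 4764 FPKM in WT (SD, n = 3 each), and the log2 difference was 0.04 (SE 0.437, 95% interval -0.9995 to 1.08). It was 0.43 without Rarres2-/- replicate 4 and -0.16 without Rarres2-/- replicate 6, and below 0 also without WT replicate 2 or Rarres2-/- replicate 5. It was 0.50 with quantile normalization, 0.44 with array weights and 0.46 without both WT replicate 1 and Rarres2-/- replicate 4. Fabp4 made up 4.95% to 7.96% of the FPKM summed over genes other than small RNA genes.

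Fabp4 and Lpl kept a nearly constant ratio. Fabp4 divided by Lpl of the same library was 11.2, 12.4 and 11.1 in Rarres2-/- and 10.2, 11.3 and 12.5 in WT, although each gene alone differed 2.25 to 2.27 times between its highest and lowest library. Lpl divided by Adipoq, another highly expressed adipocyte gene, was 0.952, 1.45 and 1.63 in Rarres2-/- and 1.67, 1.13 and 1.30 in WT, so Lpl was low in Rarres2-/- replicate 4 relative to Adipoq too. The summed FPKM of 7 white adipocyte markers was 18909, 23278 and 25355 in Rarres2-/- and 35171, 26320 and 22774 in WT, lowest in Rarres2-/- replicate 4. Cfd, the complement factor D gene, made up most of the sum in that library, at 10472 FPKM, near the 11748 and 12332 FPKM of Rarres2-/- replicates 5 and 6. Retn, another of the 7 markers, was lowest there, at 1627 FPKM. It was at 5266 and 5985 FPKM in Rarres2-/- replicates 5 and 6 and at 4400, 3539 and 3598 FPKM in WT. Other markers went the other way in Rarres2-/- replicate 4. Pck1 was there at 1869 FPKM, the highest of all 6 libraries, and Plin1 at 844 FPKM, above every WT library. Cfd, Retn and Plin1 were named after their values were seen. Of the 7 markers 5 had higher and 2 lower means in Rarres2-/-. The part of adipocyte marker levels in the low Lpl and Fabp4 of that library was not tested.

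**Figure D5:**
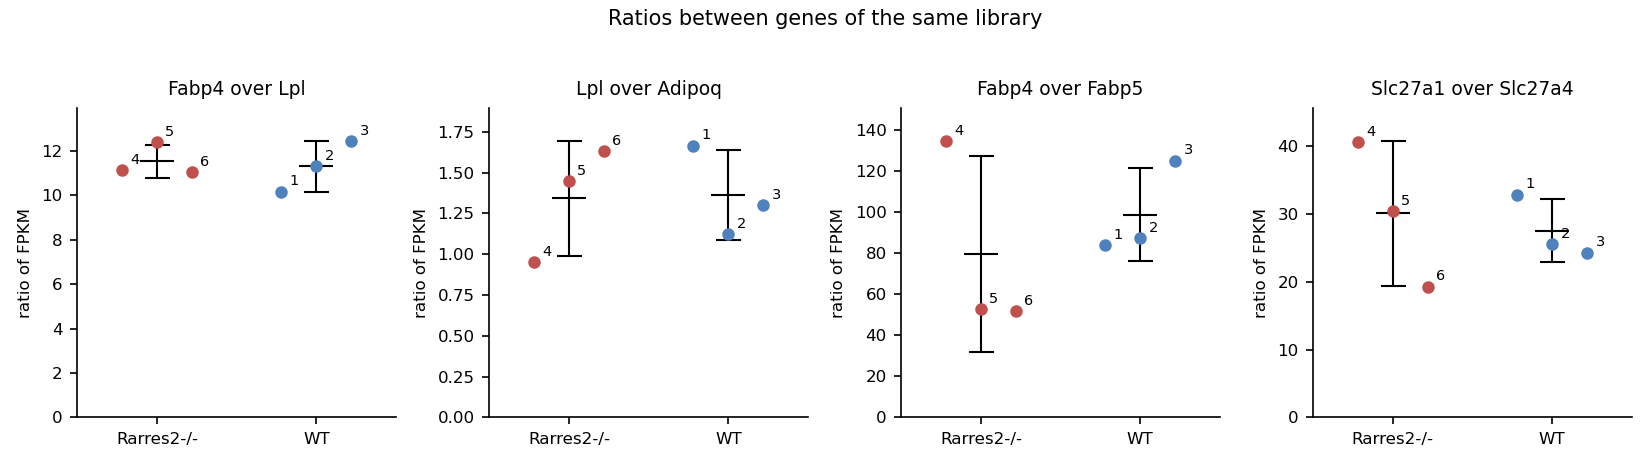
Ratios of FPKM between genes of the same library in Rarres2-/- (red) and WT (blue), with library numbers, bars and whiskers giving the mean and SD of 3 libraries. Fabp4 over Lpl stays between 10.2 and 12.5 in all 6 libraries, while Fabp4 over Fabp5 runs from 51.7 to 135.

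Fabp5 (chromosome 3, 10012585 to 10016610), the epidermal-type fatty acid binding protein gene that adipocytes and macrophages also express, split the Rarres2-/- libraries. It was at 167, 949 and 980.0 FPKM in Rarres2-/- replicates 4, 5 and 6, against 467, 371 and 332 FPKM in WT replicates 1, 2 and 3. Rarres2-/- replicates 5 and 6 were far above every WT library and replicate 4 was below them all. Means were 699 ± 461 FPKM in Rarres2-/- and 390 ± 69.6 FPKM in WT (SD, n = 3 each), with a log2 difference of 0.48 (SE 0.674, 95% interval -1.12 to 2.08) and an adjusted p of 0.999 by limma. Without Rarres2-/- replicate 4 the difference was 1.32, with an adjusted p of 0.355. Without replicate 5 or 6 of Rarres2-/- it was 0.07 or 0.05. Without both Rarres2-/- replicate 4 and WT replicate 1, Fabp5 was 1 of 68 genes (0.613%) called, at a log2 difference of 1.46 and an adjusted p of 0.0294 by limma, a setting chosen with the place of those libraries known. With array weights it was 1.35, with an adjusted p of 0.0223 by limma. That fit called 1524 (13.7%) of all genes, and its weight estimation stopped with a convergence warning.

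Fabp5 did not follow Fabp4 in size. Fabp4 over Fabp5 was 135, 52.6 and 51.7 in Rarres2-/- and 84.0, 87.2 and 125 in WT. Keratinocytes are a known source of Fabp5, and 8 epidermal and mammary epithelial markers summed to 4.06, 0.866 and 1.87 FPKM in Rarres2-/- and to 0.683, 2.29 and 2.16 FPKM in WT. Krt5, a defining keratinocyte gene, was at 0 in all libraries but WT replicate 3 (0.0795 FPKM), and Krt14 did not exceed 0.171 FPKM in any. Krt19 was the highest of these markers in every library, at 2.46, 0.713 and 1.72 FPKM in Rarres2-/- and at 0.469, 1.91 and 1.41 FPKM in WT. Krt18 and Epcam were highest in Rarres2-/- replicate 4, at 0.577 and 0.414 FPKM. These marker genes were named after their values were seen. Macrophage markers, 8 genes of which 0 had a higher mean in Rarres2-/-, summed to 929, 1025 and 793 FPKM in Rarres2-/- and to 400, 1698 and 1735 FPKM in WT, with WT replicates 2 and 3 highest. The part of either cell type in the Fabp5 values was not tested. The other genes of the chromosome 3 cluster, also named after their values were seen, were listed near 0. Between Fabp5 and Fabp4, which lie 187.7 kb apart, Pmp2 was at no more than 0.877 FPKM and Fabp9 at no more than 0.119 FPKM, and Fabp12 beyond Fabp4 reached 0.180 FPKM. Of the remaining family, Fabp3, the heart-type gene, was the only one of 8 genes tested. It was at 11.8, 19.3 and 12.9 FPKM in Rarres2-/- and at 14.1, 9.39 and 14.5 FPKM in WT (log2 difference 0.19, SE 0.241), a difference of -0.0081 without Rarres2-/- replicate 5.

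Across the 10 genes, Rarres2-/- replicate 4 was the lowest library for 4 genes (Lpl, Slc27a4, Fabp4 and Fabp5) and the highest for 1 (Angptl4). Rarres2-/- replicates 5 and 6 were each the highest for 3 genes and the lowest for none. WT replicate 1 was the highest for Lmf1 and Gpihbp1 and the lowest for Vldlr and Cd36. WT replicates 2 and 3 were each the lowest for 2 genes.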

How the data were processed

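The authors deposited 1 table of FPKM values per library, 3 from Rarres2-/- and 3 from WT fat, with a gene symbol per row, per the file headers. In WT replicate 3 the header holds a sample name where the other headers have FPKM, and its rows and scale match the other 5. Bowtie and mm10 are named in the submitters' processing notes. The sources used here do not give the program that computed FPKM, the annotation, the strand setting or the treatment of reads matching several genes. A total of 737 rows without a symbol, 0.793% to 4.91% of summed FPKM, stayed out. FPKM holds no counts, so no counting interval can be given, and scaling to library totals lets very abundant genes shift the others.

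Named genes averaging 1 FPKM or more were tested on log2(FPKM + 1) with the two-sided moderated test of limma 3.58.1 in R 4.3.3, with a mean-variance trend, genotype as the only term and adjusted p under 0.05 as the threshold. The smallest exact permutation p for 3 against 3 libraries is 0.1, so none was used. No 2 libraries shared an equal value above 0. The test was also run on simulated data, where the only condition set was a small mean error of the log2 difference. That condition measures neither power nor false calls. Genes of 8 pathway lists were named by rule, up to 3 per list by smallest p, and Pecam1, Cdh5 and Adipoq for comparison. A few genes are not reported here. Members and lists were chosen with earlier results of these data known. Alternatives were 3 scalings, a pseudocount of 0.1, no filter, 5 FPKM in 3 libraries, array weights, and libraries left out. Positions and promoters are from RefSeq on GRCm38, which mm10 denotes, and transcripts from GENCODE M21. Symbols that differed were matched through RefSeq synonyms. Coding sequences were aligned with Biopython 1.88.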

Additional observations from a re-analysis of the deposited data

How the results depend on the processing

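No paired analysis was possible because the genotypes share no replicate numbers. The count of genes called by limma, 0, was 1 with upper quartile scaling, with scaling factors computed without the top 20 genes, with the filter of 5 FPKM in 3 libraries, and 0 to 1 with 1 library left out. In those 3 settings and without Rarres2-/- replicate 5 that gene was Rarres2. It was 1524 with array weights, whose estimation stopped with a convergence warning, and 68 without both WT replicate 1 and Rarres2-/- replicate 4. Of the 10 genes, 3 were called with array weights (Cd36 at 0.61, Slc27a4 at 0.33 and Fabp5 at 1.35) and 1 without both libraries (Fabp5 at 1.46), and 0 in each fit with 1 library left out. Signs turned for Lpl with upper quartile scaling (-0.0028), for Vegfb with quantile normalization (-0.011), and with array weights for Lmf1 (0.017), Gpihbp1 (0.23), Vldlr (-0.0037), Lrp1 (-0.29), Tcf15 (0.060) and Cdh5 (0.0023). Without both libraries they turned for Lmf1 (0.15), Gpihbp1 (0.43), Canx (-0.043), Lrp1 (-0.42), Tcf15 (0.21) and Cdh5 (0.13). With 1 library left out, log2 differences ran from -0.22 to 0.37 for Lpl, -0.16 to 0.10 for Lmf1, -0.65 to 0.54 for Gpihbp1, -0.16 to 0.43 for Fabp4, -0.31 to 0.40 for Lrp1, -0.0081 to 0.32 for Fabp3, -1.02 to 0.65 for Tcf15, -0.12 to 0.22 for Vegfb, -0.47 to 0.94 for Pecam1, -0.89 to 0.80 for Cdh5 and -0.023 to 0.18 for Adipoq. Angptl4, Cd36, Slc27a1, Slc27a4 and Fabp5 stayed above 0 in every alternative run. Apart from settings that drop or reweight libraries, whose construction changes the samples used, the cause of these changes was not tested. Precision is limited by 3 libraries per genotype and by an unknown depth.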
